A study of Mus musculus with 6 samples.

Results

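Smooth muscle genes of the mouse small intestine are described here: 29 genes that encode the contractile filaments of gut smooth muscle, the proteins that bind and anchor them, the switch that turns contraction on and off, and the co-activator of the programme. They were chosen by symbol from textbook roles, with earlier results of these data known, and are 29 of the 24452 gene symbols measured. All 29 were found and passed the filter on low values. Small intestine was taken from C57BL/6 mice at postnatal day 14, before weaning, and profiled by polyA RNA-seq. Wild type and Erk1/2 -/- each had 3 libraries, and the latter are called labelled knockout below. The labels name no promoter, Cre driver or cell type for the loss of the kinases and do not say whether each library came from a separate animal, so each p-value rests on the spread between libraries, which may be technical. The series title sets the question as what these kinases do for the intestine after birth.

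In gut smooth muscle, calcium that enters the cell or leaves its stores binds calmodulin and switches on myosin light chain kinase, which phosphorylates the light chain of smooth muscle myosin so that it pulls on filaments of smooth muscle actin. A phosphatase reverses this step. The filaments are tied to dense bodies and to the membrane by crosslinkers, integrins and intermediate filaments. Many of these genes are switched on together by serum response factor (SRF), which binds a DNA element called the CArG box and works with the co-activator myocardin. In other contexts growth factor signals that pass through ERK are known to favour partners of SRF other than myocardin.

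The promoter windows of these genes are shown first because the CArG box is the element that SRF binds. A CArG box has 2 C, then 6 bases that are each A or T, then 2 G, and reads as the same pattern on both strands. RefSeq windows (GRCm38.p6, from 250 bases before to 50 after the annotated start) were given for 24 of the 29 genes, and not for Actg2, Myh11, Myocd, Nexn and Tagln. The box was present in 2 of the 24, Myl9 and Ldb3, and in 1.81% of all 27025 genes with a window. Allowing 1 C or G among the 6 middle bases, it was present in 5 of the 24, and in 11.3% of all genes. These 5 are printed 5′ to 3′ on the transcribed strand with the boxes in capitals. The pieces of Acta2 are short because the bases lie in an exon of another annotated transcript.
Acta2, chr19:34255438-34255467, minus strand: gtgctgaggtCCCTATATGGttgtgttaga
Acta2, chr19:34255388-34255417, minus strand: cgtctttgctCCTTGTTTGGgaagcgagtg
Myl9, chr2:156775283-156775394, plus strand: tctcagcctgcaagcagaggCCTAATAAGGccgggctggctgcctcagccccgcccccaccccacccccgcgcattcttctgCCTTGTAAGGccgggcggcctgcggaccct
Ldb3, chr14:34588687-34588736, minus strand: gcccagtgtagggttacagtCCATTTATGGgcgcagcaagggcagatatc
Jph2, chr2:163398037-163398086, minus strand: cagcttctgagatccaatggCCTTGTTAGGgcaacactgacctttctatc
Synm, chr7:67759952-67759992, minus strand: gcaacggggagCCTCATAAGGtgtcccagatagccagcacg
Acta2 and Myl9 each had 2 such boxes, and in the other 3 genes there was 1. A match of letters is a description of these windows and not of binding.

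The deposited values are normalised counts, whole numbers per gene symbol that summed to between 13641468 and 17153570 per library, the highest in labelled knockout 1. Values are given throughout in the order of the library numbers, wild type before labelled knockout. The targeted gene reported here was not lower in labelled knockout. Mapk3 (ERK1) had 3142, 2788 and 2004 in the wild type libraries, against 3363, 2280 and 2734 in those labelled knockout. The groups overlapped, and it differed by 0.09 ± 0.22 on the log2 scale (SE; limma adjusted p of 0.819), while scaling by library totals put it at -0.089. These are totals over the whole gene, and which exons are deleted is not given in the sources used here. Directions below therefore follow the labels, not a genotype that this total shows.

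Labelled knockout 1 stood apart in a way that bears on long muscle genes. Against the median of the other 5 libraries, its genes with a longest annotated transcript of up to 1000 bases had a median log2 difference of 0.78, and those over 8000 bases had -0.88. The same medians ran only from -0.24 to 0.19 in the other 5 libraries. Across 14191 genes the rank correlation between this difference and length was -0.52 in labelled knockout 1 and between -0.13 and 0.26 in the others, given as a description across genes, which are not independent. Fold changes that moved by more than 1.5 times or turned sign without this library are given below both ways for the 29 genes. Values without the length trend come from subtracting, in each library, a smooth curve of the difference from the gene's mean against length, and are called length-centred.

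The smooth muscle genes were mostly lower in the libraries labelled knockout, by a modest amount and with few differences that stood clear of the replicate spread. Of the 29, 24 had a negative log2 fold change, as did 50.9% of the 14686 genes tested, and their median was -0.39, while that of all genes tested was -0.01. Only Itga8 passed a limma adjusted p of 0.05, so 1 gene fell and none rose. Over all genes tested 3.94% were called lower and 4.85% higher, so a count of 1 in 29 is no more than the background. Without labelled knockout 1 and with length-centred values Itga8 was again the only call, where 10% and 5.57% of genes were called lower. At an unadjusted p under 0.05, 8 of the 29 were lower and none higher, as were 14.5% and 15.8% of all genes, and limma-voom also called none higher. In 11 of the 29 all 3 labelled knockout libraries lay below all 3 wild type libraries, and in none above; over all genes tested these shares were 17.8% and 19.8%. The median of the 29 was -0.30 without labelled knockout 1 and -0.42 with length-centred values, beside medians of all genes of 0.0036 and 0.0044. It was -0.56 under scaling by library totals, where the median of all genes was -0.19, and -0.16 without both wild type 3 and labelled knockout 1. These are the 2 libraries in which a segment score (log2 level of genes of the proximal intestine, averaged, less the same for bile acid genes of the ileum) was low (-1.56 and -0.87, against 3.68 to 5.75 in the others). Without them, 3 of the 29 were called lower (Itga8, Mylk and Synpo2), as were 12.1% of all genes. With the score as a covariate, 9 of the 29 were called lower and none higher, as were 13.3% of all genes lower. The values are relative to the rest of each library. In bulk tissue, a smaller share of muscle cells and less RNA per muscle cell cannot be told apart.

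**Figure D1:**
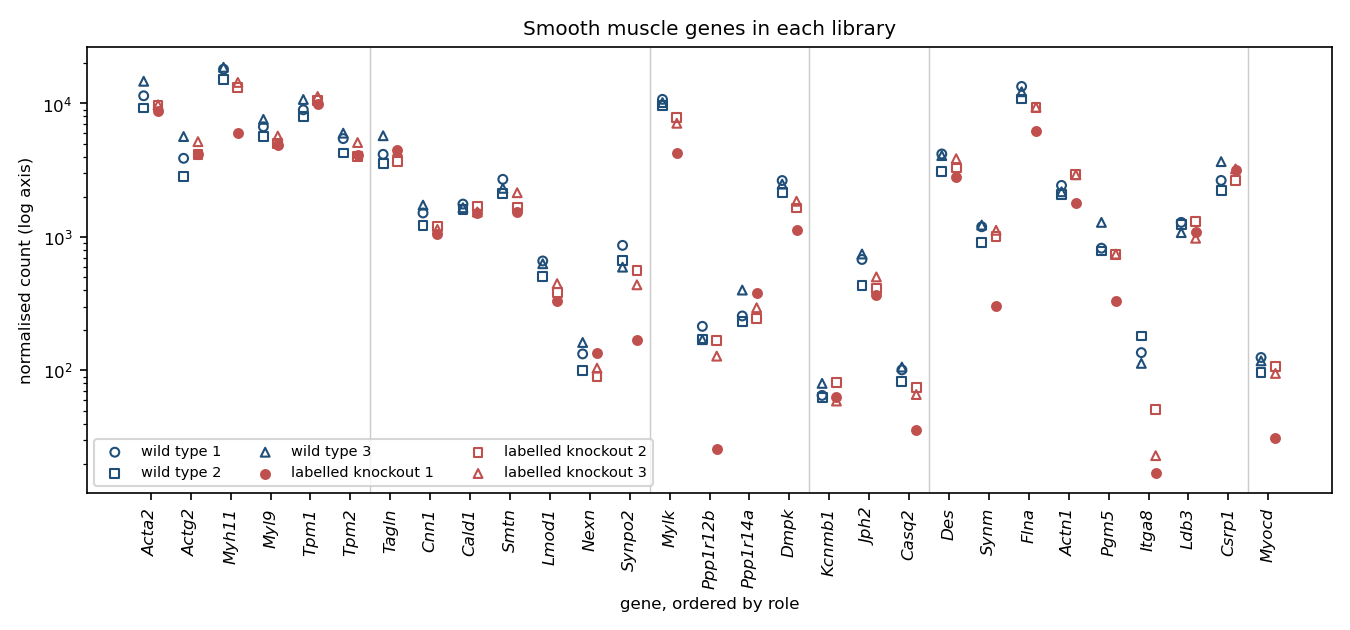
Normalised count of each smooth muscle gene (log axis) in the 6 libraries, with the genes grouped by role from contractile filaments at the left to Myocd at the right. Blue symbols are wild type and red symbols labelled knockout, with labelled knockout 1 filled; it is the lowest library for 20 of the 29 genes, and for Itga8 all red symbols lie well below the blue ones.

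Among the libraries, wild type 1 and wild type 3 held the highest value of 24 of the 29 genes (10 and 14), and labelled knockout 1 the lowest value of 20. Over all genes tested wild type 1 was highest in 12.2%, wild type 3 in 14.2%, and labelled knockout 1 was lowest in 29.1%. Wild type 2 was the lowest library for 5 genes, and labelled knockout 1 was the highest for none, while over all genes tested it was the highest in 29.7%. The summed normalised count of the 29 was 107227, 89049 and 116242 in the wild type libraries, against 69255, 87689 and 93927 in those labelled knockout. As a share of the library this was 0.780%, 0.653% and 0.825% and then 0.404%, 0.587% and 0.634%. The sums of the 2 groups overlapped, with wild type 2 inside the labelled knockout range, and the shares did not.

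Itga8 was the only gene of the set that fell. It encodes the integrin alpha 8 chain, which pairs with integrin beta 1 on smooth muscle and other mesenchymal cells and binds matrix proteins, and it lies on chromosome 2 from 12106632 to 12301922, minus strand (GRCm38). Its normalised counts were 136, 181 and 113 in the wild type libraries, against 17, 51 and 23 in those labelled knockout. The groups did not overlap, and the highest labelled knockout value was less than the lowest wild type value. The log2 fold change was -2.33 ± 0.41 (SE; limma adjusted p = 0.0253), 5.02-fold lower. It was -2.0 without labelled knockout 1 (limma adjusted p = 0.0186) and -2.13 with length-centred values (limma adjusted p = 0.0167). The call was lost at limma adjusted p-values of 0.0969, 0.135 and 0.0571 without wild type 1, 2 and 3 and 0.105 without labelled knockout 3, with log2 fold changes between -2.48 and -2.15, and at 0.0546 with the replicate number as a block. At 24.7 normalised counts per kilobase in wild type, Itga8 was among the least abundant of the 29.

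**Figure D2:**
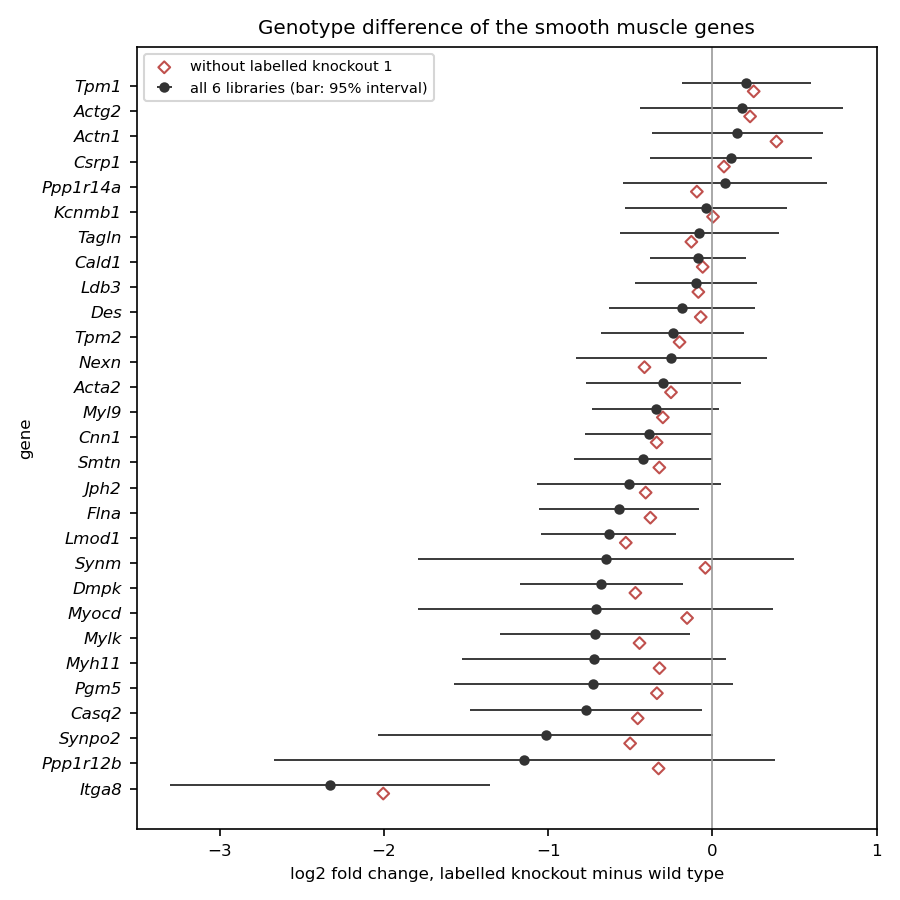
Log2 fold change of the 29 genes, labelled knockout minus wild type, ordered from the highest value at the top to Itga8 at the bottom. Black points and bars are the estimate and its 95% interval from all 6 libraries, and open red diamonds the estimate without labelled knockout 1; for Ppp1r12b, Synm and Myocd the diamond lies far nearer 0 than the point, and for Itga8 it stays at -2.0.

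None of the 6 contractile filament genes passed, and log2 fold changes ran from -0.72 to 0.21. Acta2, the alpha actin of smooth muscle (chromosome 19, 34241090 to 34255590), had 11418, 9246 and 14666 in the wild type libraries, against 8820, 9669 and 9761 in those labelled knockout. The groups overlapped because wild type 2 lay below 2 of the labelled knockout libraries, and the log2 fold change was -0.30 ± 0.20 (SE; limma adjusted p = 0.348). Actg2, the gamma actin typical of visceral muscle (chromosome 6, 83512905 to 83536265), had 3883, 2824 and 5654 and then 4166, 4162 and 5175. All its labelled knockout values lay inside the wild type range, with a log2 fold change of 0.18 ± 0.26 and a 95% interval from -0.44 to 0.80, which allows a change of either sign. Its sign was negative with length-centred values, at -0.046. Reads of Acta2, Actg2 and the other actin genes could be shared because their coding sequences are very similar, and how multi-mapping reads were counted is not given in the sources used here.

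Myh11, the myosin heavy chain that defines smooth muscle, was the most abundant of the 29 in counts (chromosome 16, 14194535 to 14291372). It had 18062, 15126 and 18667 in the wild type libraries, against 6001, 13192 and 14378 in those labelled knockout. The groups did not overlap, but labelled knockout 1 lay far below the other 2. The log2 fold change was -0.72 ± 0.34 (limma adjusted p = 0.202), and it was -0.32 ± 0.16 without that library. Myl9, the light chain that the kinase phosphorylates, had 6697, 5637 and 7604 and then 4879, 5030 and 5696, a log2 fold change of -0.35 ± 0.16. The tropomyosins lie along the actin filament and control access of myosin. Tpm1 had 8966, 7950 and 10716 and then 9936, 10499 and 11281, with a log2 fold change of 0.21 ± 0.17, the highest of the 29. Tpm2 had 5456, 4251 and 5991 and then 4125, 3989 and 5098, with -0.24 ± 0.19. Tpm1 is also transcribed outside muscle, and its 2 groups, like those of Tpm2, overlapped.

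The 7 genes grouped as thin filament and actin-bundle proteins all had negative log2 fold changes, from -1.02 to -0.08, and none passed. Genes of other groups also encode proteins that bind actin, and among them Tpm1 and Actn1 were positive. Lmod1, a leiomodin that starts actin filaments in smooth muscle, had 661, 508 and 630 in the wild type libraries, against 333, 382 and 447 in those labelled knockout. Its groups did not overlap, and at -0.63 ± 0.17 (limma adjusted p = 0.0669) it came nearest to the threshold after Itga8. Its value was -0.53 without labelled knockout 1 (limma adjusted p = 0.0579). Cnn1, a calponin that slows the myosin motor, had 1513, 1224 and 1732 and then 1055, 1193 and 1139, a log2 fold change of -0.39 ± 0.16. Its labelled knockout values lay close together and just below the lowest wild type value. Tagln, the actin-bundling transgelin, had 4161, 3557 and 5732 and then 4447, 3702 and 4368, a log2 fold change of -0.08 ± 0.20 that was -0.13 without labelled knockout 1 and turned positive, at 0.11, without wild type 3. Synpo2, a protein of dense bodies and Z discs, had 865, 669 and 594 and then 169, 559 and 438. Its -1.02 ± 0.43 became -0.50 ± 0.19 without labelled knockout 1. Smtn, smoothelin of contractile muscle, had -0.42 ± 0.18, Nexn -0.25 ± 0.25 (-0.41 without labelled knockout 1) and the thin filament protein caldesmon, Cald1, -0.09 ± 0.12. With 1763, 1611 and 1656 in wild type and 1519, 1682 and 1538 in labelled knockout, Cald1 had groups that overlapped, and its sign was positive with length-centred values, at 0.044.

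Of the 4 genes for the switch that sets myosin phosphorylation and related kinases, 3 had negative log2 fold changes (Mylk, Ppp1r12b and Dmpk), and none passed. Mylk, the myosin light chain kinase (chromosome 16, 34745210 to 35002420), had 10734, 9701 and 10151 in the wild type libraries, values within a narrow range, against 4282, 7893 and 7109 in those labelled knockout. The groups did not overlap. The log2 fold change was -0.71 ± 0.24 (limma adjusted p = 0.108), -0.44 ± 0.13 without labelled knockout 1 (0.0581) and -0.44 with length-centred values (0.0586), so it stayed short of the threshold in all 3. Mylk passed without both wild type 3 and labelled knockout 1, as did Synpo2. Ppp1r12b, a targeting subunit of myosin phosphatase, had 214, 172 and 170 and then 26, 168 and 128. Its -1.14 ± 0.64 rested on labelled knockout 1 and was -0.33 ± 0.18 without it. Ppp1r14a, the phosphatase inhibitor CPI-17, had 256, 231 and 400 and then 383, 245 and 295. Its 0.08 ± 0.26 turned to -0.094 without labelled knockout 1 and to -0.098 when scaled by library totals. Dmpk, a kinase of muscle cells, had 2647, 2140 and 2488 and then 1135, 1646 and 1851, without overlap, and had -0.68 ± 0.21 on the log2 scale (limma adjusted p = 0.0859).

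Of the genes for calcium handling and excitation, none passed. Casq2, the calsequestrin that stores calcium in the sarcoplasmic reticulum, had 101, 83 and 106 in the wild type libraries, against 36, 74 and 66 in those labelled knockout. The groups did not overlap, and the log2 fold change was -0.77 ± 0.30 (limma adjusted p = 0.140), and -0.45 ± 0.18 without labelled knockout 1. Jph2, a junctophilin that holds the reticulum near the membrane, had 678, 434 and 745 and then 369, 412 and 502, with -0.51 ± 0.24 and groups that overlapped through wild type 2. Kcnmb1, the beta subunit of the BK potassium channel, had 65, 63 and 80 and then 63, 81 and 59. Its -0.04 ± 0.21 had a 95% interval from -0.53 to 0.45, and its sign was positive without labelled knockout 1, at 0.0041, and with length-centred values, at 0.031.

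Of the 8 genes of anchorage and intermediate filaments, 6 had negative log2 fold changes, and only Itga8, described above, passed. Flna, an actin crosslinker made in many cell types (chromosome X, 74223461 to 74249820), had 13417, 10800 and 12244 in the wild type libraries, against 6266, 9267 and 9372 in those labelled knockout. Its groups did not overlap, and the log2 fold change was -0.57 ± 0.21 (limma adjusted p = 0.121). It was -0.38 ± 0.15 without labelled knockout 1 and -0.28 with length-centred values. Actn1, an alpha actinin also made outside muscle, had 2433, 2094 and 2181 and then 1783, 2927 and 2922. Labelled knockout 1 was below and the other 2 above all wild type libraries, so its 0.15 ± 0.22 became 0.39 ± 0.11 without labelled knockout 1 (limma adjusted p = 0.0566). With library totals as the scale it was -0.022. Des, the muscle intermediate filament protein desmin, had 4186, 3073 and 4070 and then 2813, 3287 and 3859, with -0.18 ± 0.19, and -0.071 ± 0.17 without labelled knockout 1. Synm, its partner synemin, had 1192, 908 and 1227 and then 303, 1015 and 1122. Its -0.65 ± 0.48 was -0.04 ± 0.16 without labelled knockout 1, where its values lay within the wild type range. Pgm5, a phosphoglucomutase-like protein of cell adhesion sites, had 824, 785 and 1286 and then 332, 744 and 744, with -0.73 ± 0.36, and -0.34 ± 0.22 without labelled knockout 1. Csrp1, an LIM protein of the actin cytoskeleton, had 2653, 2237 and 3667 and then 3197, 2659 and 3233, with 0.11 ± 0.21, 0.071 without labelled knockout 1, and -0.062 when scaled by library totals. Ldb3, a Z disc protein, had 1286, 1235 and 1078 and then 1093, 1300 and 978, with -0.10 ± 0.16, and 0.058 with length-centred values.

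Myocd, the co-activator myocardin, had 125, 96 and 118 in the wild type libraries, against 31, 107 and 95 in those labelled knockout. Labelled knockout 2 and 3 lay within or next to the wild type range, and labelled knockout 1 far below it. The log2 fold change was -0.71 ± 0.46 (limma adjusted p = 0.331), and -0.15 ± 0.18 without labelled knockout 1.

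Labelled knockout 1 was more often the lowest library for the long genes of the set than for the short ones. Of the 17 genes with a longest transcript over 3000 bases, 16 had a negative log2 fold change and labelled knockout 1 was the lowest library for 15, while over all genes of that length it was lowest in 43.8%. Of the 12 shorter genes, 8 were negative and labelled knockout 1 was lowest for 5, and over all genes of that length in 9.48%. The median log2 fold change was -0.63 for the long genes and -0.25 for the short ones with all libraries, and -0.32 and -0.23 without labelled knockout 1. Over all genes tested the same medians were -0.13 and 0.16, and -0.02 and 0.05 without labelled knockout 1. In that library the log2 difference from the median of the others was -2.66 for Ppp1r12b (8840 bases) and -1.81 for Synpo2 (9203 bases), and 0.096 for Tagln (1595 bases) and 0.58 for Ppp1r14a (950 bases). Other genes did not follow this order. The shorter Casq2 (2556 bases) had -1.18 and Dmpk (2850 bases) -0.91, and the longer Kcnmb1 (4191 bases) had -0.044, Cald1 (4777 bases) -0.12 and Ldb3 (5119 bases) -0.18. Within their length classes, 24 of the 29 genes still lay below the class median in labelled knockout 1, 22 in labelled knockout 2 and 18 in labelled knockout 3, and 4, 17 and 2 in wild type 1 to 3. The part that length plays in the differences between the groups was not tested beyond these values.

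**Figure D3:**
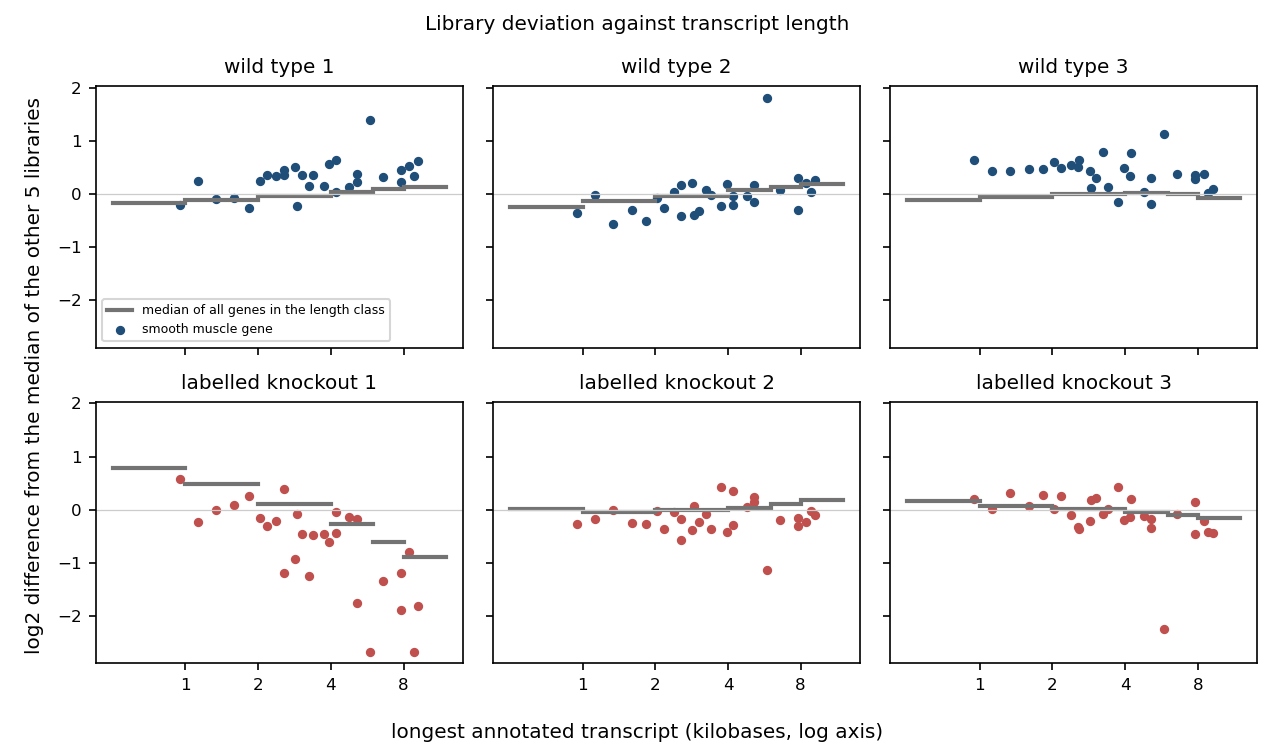
Log2 difference of each smooth muscle gene from the median of the other 5 libraries against the length of its longest annotated transcript (kilobases, log axis), in 1 panel per library. Grey bars are the medians of all genes in each length class; in labelled knockout 1 they step down from 0.78 to -0.88 and the smooth muscle genes (red) run down with them, mostly below the bars.

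Per kilobase of longest transcript, wild type levels spanned from 5892 normalised counts for Myl9 to 16.5 for Kcnmb1. Myl9 and Acta2 led, at 5892 ± 873 and 5787 ± 1340 (SD, n = 3 each), and did not differ beyond their spread. Tpm1 (3187 ± 484), Actg2 (3091 ± 1073), Tagln (2811 ± 704), Myh11 (2639 ± 289) and Tpm2 (2406 ± 410) followed, and each differed from the next by less than 1 SD. The anchoring genes Flna (1437 ± 155) and Des (1247 ± 202) and the kinase gene Mylk (1303 ± 66.2) were lower per kilobase than the filament genes. Itga8, Myocd (22.1 ± 2.96), Ppp1r12b and Kcnmb1 closed the order. The longest annotated transcript need not be the one that gut muscle makes, so this order is approximate.

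Other genes of the same pathway were read from lists of textbook roles, also chosen with earlier results of these data known. The counts of these lists and of the markers that follow stand beside 3.94% of all genes tested called lower and 4.85% higher, and nothing particular to a list is read from a single call. Of 28 tested genes for other smooth muscle structural proteins, 2 fell and 1 rose, with a median log2 fold change of -0.30. Cav1, the caveolin of membrane pits, fell from 834, 845 and 973 to 373, 456 and 487, a change of -1.01 ± 0.16 (log2; limma adjusted p = 0.0196). Ptrf, the cavin that shapes the same pits, fell with -0.64 ± 0.14 (limma adjusted p = 0.0393). Both are also made by endothelium. Dstn, the actin-severing destrin found in many cells, rose with 0.76 ± 0.17 (limma adjusted p = 0.0404). Of 26 genes for contraction signalling and calcium handling, 1 fell: Ryr3, a calcium release channel, from 133, 128 and 137 to 36, 52 and 66, with -1.39 ± 0.25 (limma adjusted p = 0.0248). Tacr2, the neurokinin receptor of gut muscle, had 25, 42 and 28 and then 5, 14 and 14, without overlap and without passing at -1.53 ± 0.44 (limma adjusted p = 0.0743). Orai1 of the same list went the other way, from 561, 584 and 584 to 1104, 787 and 784. Its groups did not overlap, and it did not pass at 0.61 ± 0.17 (limma adjusted p = 0.0678). Of the 26, 6 were positive and 20 negative. Of 20 tested transcription regulators, 3 fell and 1 rose, and 6 were positive and 14 negative. Their median was -0.23 with all libraries and 0.09 without labelled knockout 1. In this list Foxo4, a forkhead factor that can hold back myocardin, changed by -0.81 ± 0.13, Mef2c, a MADS box factor of muscle and vessels, by -0.92 ± 0.19, and Foxf2, a forkhead factor of gut mesenchyme, by -0.70 ± 0.17. Fhl2, a LIM co-factor of SRF, rose by 0.86 ± 0.15, from 652, 625 and 708 to 1326, 1031 and 1266.

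Of 20 non-muscle counterparts of the contractile genes, 2 rose and none fell. Their median was 0.17, but -0.0006 when scaled by library totals, where 10 of the 20 were positive. Actg1, a cytoplasmic actin, rose from 16802, 12670 and 18912 to 38937, 30588 and 34630, a change of 1.12 ± 0.21 (log2; limma adjusted p = 0.0289). Tpm3, a tropomyosin of many cell types, rose by 0.71 ± 0.13 (limma adjusted p = 0.0267), and Actb did not pass at 0.77 ± 0.22 (0.0723). Myh10 of the same list went the other way, from 601, 539 and 562 to 374, 428 and 350. Its groups did not overlap, and it did not pass at -0.57 ± 0.14 (limma adjusted p = 0.0514). Of the 20, 13 were positive and 7 negative. The ratio between isoforms within a library, mostly of smooth muscle to non-muscle isoform, was compared for 4 pairs chosen after their values were seen. The log2 ratio of Acta2 to Actg1 was -0.56, -0.45 and -0.37 in the wild type libraries, against -2.14, -1.66 and -1.83 in those labelled knockout. That of Tpm2 to Tpm3 was 0.43, 0.21 and 0.54 and then -0.60, -0.69 and -0.38. That of Myh11 to Myh9, the non-muscle myosin, was 0.11, 0.04 and 0.61 and then -1.01, -0.58 and -0.35. That of Acta2 to Actg2, the 2 smooth muscle actins, was 1.56, 1.71 and 1.38 and then 1.08, 1.22 and 0.92. All 4 ratios had the groups apart with lower values in labelled knockout. Since the pairs were chosen after their values were seen, these ratios are a description. An exact test between the groups gave p = 0.1 for each. With 3 libraries per group this is the lowest value that test can give. It follows from the groups being apart, which was seen before the pairs were chosen, so no conclusion is drawn from it.

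Markers of other cell types moved beside the muscle genes. Of 10 epithelial markers 5 rose, and their summed counts ran from 87724 to 106482 in wild type and from 164623 to 172513 in labelled knockout. Krt8, an epithelial keratin, rose by 1.28 ± 0.20 on the log2 scale. Of 10 endothelial markers 3 fell, Cdh5 (-0.78 ± 0.14), Pecam1 (-0.74 ± 0.14) and Kdr (-0.81 ± 0.15), and all 10 fold changes were negative; the sums ran from 7477 to 9091 and from 5522 to 6565. Of 9 markers of interstitial cells of Cajal, the pacemaker cells of gut muscle, 1 fell, Kcnk3 (from 214, 189 and 167 to 50, 81 and 84; -1.42 ± 0.24), and 8 were negative, with sums from 2149 to 2248 and from 1159 to 1716. Ano1, the chloride channel that defines these cells, had 479, 399 and 363 and then 191, 287 and 257, without passing (limma adjusted p = 0.0601). Of 11 tested pericyte and vascular muscle markers 10 were negative and 1 fell, Cspg4 (-0.78 ± 0.17), with sums from 6381 to 7686 and from 5317 to 6037. Cspg4 did not pass with length-centred values, at -0.49 (limma adjusted p = 0.131). Kcnj8 of this list went the other way, from 343, 361 and 364 to 623, 447 and 481. Its groups did not overlap, and it did not pass at 0.52 ± 0.16 (limma adjusted p = 0.087). Of 12 fibroblast markers none passed, 10 were negative, and the sums overlapped, from 57253 to 78236 and from 44810 to 61465. None of 12 enteric neuron and 8 enteric glia markers passed, and their sums overlapped, from 1952 to 3379 and 2767 to 3783 for neurons and from 5375 to 6796 and 2910 to 6481 for glia. Of the neuron markers 8 were negative, with a median of -0.41 that was 0.04 without labelled knockout 1. Ret, with 771, 812 and 1975 and then 2903, 1538 and 1428, made up much of the neuron sum. Of the glia markers 6 were negative, with a median of -0.33. Over all genes tested 50.9% were negative. Of 6 tested mesothelium markers 1 rose, Krt19, which epithelium also makes. The genes of the lists beyond the 29 that passed were checked by leaving out single libraries, for the 23 that were among the 4 of lowest p in their list; another called epithelial gene was not included. Leaving out labelled knockout 1, 2 or 3 left 23, 11 and 0 of them called, and leaving out wild type 1, 2 or 3 left 1, 0 and 3 of the 21 then tested. The part of these cell types in the differences of the muscle genes was not tested.

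**Figure D4:**
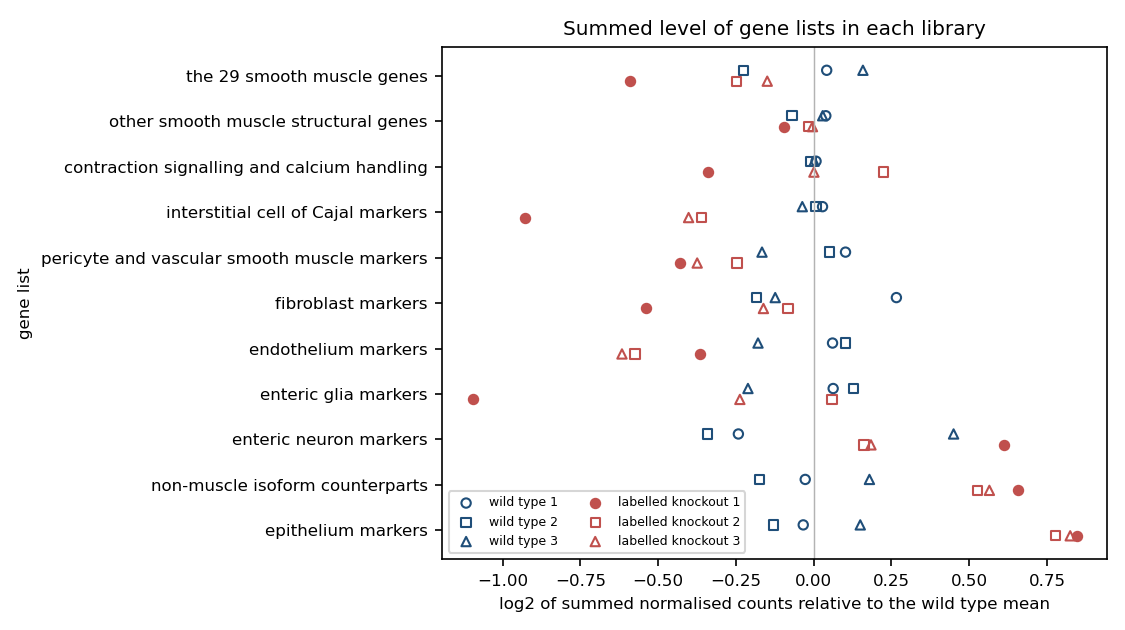
Log2 of the summed normalised counts of each gene list in each library, relative to the mean of the 3 wild type libraries. Blue symbols are wild type and red symbols labelled knockout (labelled knockout 1 filled); the epithelial and non-muscle lists lie to the right in labelled knockout, the endothelial, pericyte and interstitial cell lists to the left, and the sum of the 29 smooth muscle genes overlaps between the groups through wild type 2.

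Striated muscle markers, which would mark stray muscle in the tissue, were low: 11 of 22 passed the filter, 2 were at 0 in all libraries, and their summed counts ran from 564 to 917 in wild type and from 604 to 1447 in labelled knockout. Of the 11, 3 were called lower, and 2 of these, Myh7 and Actc1, passed the filter only through the wild type libraries. Both lay below 10 in every labelled knockout library, near the floor. Their calls are a description, and no conclusion is drawn from their p-values. Myh7, a slow striated myosin, had 42, 28 and 29 in the wild type libraries, against 2, 6 and 4 in those labelled knockout, with -2.83 ± 0.41 (limma adjusted p = 0.018). Actc1, the cardiac actin, had 14, 22 and 25 and then 0, 4 and 1, with -3.27 ± 0.65 (limma adjusted p = 0.0323), and Ckm, the muscle creatine kinase, had 155, 115 and 117 and then 44, 73 and 46, with -1.26 ± 0.26 (limma adjusted p = 0.0348). Acta1, the skeletal actin, did not follow the labels, with 37, 27 and 379 and then 339, 77 and 775.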

How the data were processed

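Per the labels' protocols, RNA of frozen small intestine was isolated with Trizol and made into polyA libraries (Illumina TruSeq). Tools listed in the submitters' processing notes are HTSeq 0.6.0, TopHat2 2.1.0 and DESeq2 (no version), with the build mm10. Each deposited value is a score for 1 gene symbol, a normalised count in whole numbers and not a raw count. Recomputed median-ratio factors lay between 1.0054 and 1.0088 although totals differed. Some whole numbers from 1 to 60 occurred in no gene of a library. These were 10 in labelled knockout 1, 7 in wild type 3, 2 in labelled knockout 3 and 0 in the others. Counting intervals were therefore not computed. Of the symbols, 27 had been turned into dates. No column of other samples was present (0 unused).

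limma 3.58.1 in R 4.3.3 was fitted to log2(normalised count + 1), with a trend of variance on level, for genes that reached 10 in 3 or more libraries, with genotype as the only term, two-sided and Benjamini-Hochberg adjusted over all 14686 genes tested at 0.05 (4 residual and 2.99 prior degrees of freedom). Fold changes are on this scale and understate those of low genes; ± is the SE for fold changes. The scripts were tested on simulated data. Lengths are the longest GENCODE vM21 transcript, found for 96.6% of genes tested. Deviations of same-numbered libraries correlated with r of -0.37, 0.30 and -0.16. With 3 libraries per group, these values cannot show whether the numbers pair the libraries.

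The members and the 15 other lists were chosen with earlier results of these data known. All members are named, and of the other lists up to 4 genes by p-value; Acta1 was chosen after its values were seen. The length-centred values (lowess span 0.3) and the isoform ratios were added after seeing the data. The other targeted gene is not reported here.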

Additional observations from a re-analysis of the deposited data

How the results depend on the processing

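Scaling, pseudocount, filter, prior trend, limma-voom, the replicate block, a segment score as covariate and the libraries used were varied. No setting called any of the 29 genes higher. Of 19 other settings, 12 gave 1 gene called lower. The replicate block gave 0 of the 29 lower and 64 genes called in all, and the segment score 9 of the 29 lower (Casq2, Dmpk, Flna, Itga8, Lmod1, Myh11, Mylk, Ppp1r12b and Synpo2) beside 4247 genes in all, where 13.3% of genes tested were called lower. Without wild type 3 and labelled knockout 1 together, 3 of the 29 were called lower and 3762 genes in all, 12.1% of genes tested lower, with a median of the 29 of -0.16. Leaving out 1 library gave from 0 to 1 of the 29, from 28 to 2998 genes and medians from -0.50 to -0.27. The median was -0.56 under scaling by library totals. Signs that turned belonged to uncalled genes. With length-centred values Actg2 had -0.046, Kcnmb1 0.031, Cald1 0.044, Ldb3 0.058, Csrp1 -0.036, Ppp1r14a -0.24 and Mapk3 -0.066. Under library totals Csrp1 had -0.062, Ppp1r14a -0.098, Actn1 -0.022 and Mapk3 -0.089. Without wild type 3 and labelled knockout 1 together Tagln had 0.064, Kcnmb1 0.11, Synm 0.037 and Mapk3 -0.25. Leaving out 1 library gave ranges of -0.066 to 0.43 for Actg2, -0.23 to 0.11 for Tagln, -0.17 to 0.066 for Kcnmb1, -0.048 to 0.31 for Csrp1, -0.094 to 0.31 for Ppp1r14a and -0.10 to 0.22 for Mapk3. The cause of these changes was not tested. A fit that leaves 2 libraries in a group rests on few degrees of freedom. Depth behind the normalised counts is not given in the files. Gaps among the low whole numbers were most frequent in labelled knockout 1 and wild type 3.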
